A study of Mus musculus with 2 samples.

Results

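The genes described here present peptides on MHC class II molecules, and 9 of the 55353 gene symbols in the deposited files were chosen by name. They were H2-Aa, H2-Ab1 and H2-Eb1, which encode the chains of the class II molecules I-A and I-E; Cd74, the invariant chain; H2-DMa, H2-DMb1 and H2-Oa, which encode subunits of the peptide exchange proteins; Ciita, the class II transactivator; and Ctss, the protease cathepsin S. All 9 symbols were found in both libraries. Each library was a single-cell 3' RNA profile of skin taken from the back of C57BL/6 mice at an age of 7 weeks. In the first library the mice had received imiquimod, which activates Toll-like receptor 7 and gives mouse skin an inflammation that resembles psoriasis. In the second the mice received imiquimod as well as Shi-Bi-Man, the natural product named in the title of the series, and it is called the Shi-Bi-Man library below. Both libraries therefore carried the imiquimod treatment, and no untreated skin was analysed here. How many animals went into each library, and the dose, route and days of treatment, are not stated in the labels used here.

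Each group held 1 library, so no difference below has a replicate check and no test was possible. Levels are in CPM, a gene's counts in a cell class scaled to a total of 1000000 counts of that class, and ratios are log2 of the Shi-Bi-Man library over the imiquimod library. Intervals in parentheses are 95% intervals, and they cover counting error only. The imiquimod library held 11316 barcodes and 28920316 counts, and the Shi-Bi-Man library 8054 barcodes and 20837259 counts, and 49 barcodes occurred in both. After filtering, 11019 and 7863 cells were kept, with medians of 1616 and 1780 counts. The doublet caller failed in the imiquimod library, where it marked 0 of 11019 cells, while in the Shi-Bi-Man library 83 of 7946 (1.04%) were marked and left out. Counts of erythroid markers such as haemoglobin genes were higher in the imiquimod library: they summed to 2325 and 14.2 CPM in Langerhans cell-like cells, 2640.2 and 13.6 CPM in monocyte and inflammatory cells and 946 and 53.3 CPM in blood endothelial-like cells. Their part in the results below was not tested.

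As background, class II molecules carry peptides from the endosomes of antigen-presenting cells to the surface, where CD4 T cells read them. The invariant chain fills the groove of newly made class II molecules and directs them to the endosome, where proteases such as cathepsin S trim it. H2-DM then exchanges the remaining fragment for peptide, and H2-O restrains H2-DM. Ciita is recruited to class II promoters by factors bound at the X and Y boxes, and interferon-gamma induces Ciita, in part through Irf1. In skin the class is best known from Langerhans cells, the antigen-presenting cells of the epidermis, and from dermal dendritic cells and macrophages. Endothelial cells and keratinocytes can also carry class II molecules in inflamed skin. C57BL/6 mice lack a functional H2-Ea gene, so I-E is not formed at their cell surface although H2-Eb1 is transcribed.

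Of the 9 genes, 6 lie in the class II region of chromosome 17 of GRCm38, as placed by the GENCODE vM21 annotation. These are H2-Oa (ENSMUSG00000024334, 34092340 to 34095234), H2-DMa (ENSMUSG00000037649, 34119541 to 34139101), H2-DMb1 (ENSMUSG00000079547, 34153072 to 34160230) and H2-Ab1 (ENSMUSG00000073421, 34257689 to 34269419). The other two there are H2-Aa (ENSMUSG00000036594, 34282744 to 34287823, minus strand) and H2-Eb1 (ENSMUSG00000060586, 34305867 to 34316674). Ciita (ENSMUSG00000022504) lies on chromosome 16 from 10480059 to 10528418 and Ctss (ENSMUSG00000038642) on chromosome 3 from 95526786 to 95556403. Cd74 is ENSMUSG00000024610. All are protein-coding genes.

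The promoter sequences are shown because Ciita acts through the X and Y boxes. Some of the region genes held a match to the X box core followed by a Y box in this window. Others held a Y box with no match to that core. The search was for the letters ACNGATG only, so an X box with other letters would be missed. The 150 bases before the start of 5 genes were taken from RefSeq on GRCm38.p6, read 5' to 3' on the strand of the gene. Capitals mark the X box core (ACNGATG), the Y box (GATTGG, or CCAATC where it lies on the other strand) and, in Ctss, the core of the interferon-stimulated response element (GAAANNGAA). H2-DMb2, a neighbouring copy of H2-DMb1, is shown because its counts separated Langerhans cell-like cells from macrophages. The windows are chr17:34287824-34287973 on the minus strand for H2-Aa, and on the plus strand chr17:34305717-34305866 for H2-Eb1, chr17:34153041-34153190 for H2-DMb1, chr17:34145099-34145248 for H2-DMb2 and chr3:95526636-95526785 for Ctss.
H2-Aa: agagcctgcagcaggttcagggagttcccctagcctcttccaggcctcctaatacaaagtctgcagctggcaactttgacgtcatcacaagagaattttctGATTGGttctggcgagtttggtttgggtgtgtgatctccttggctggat
H2-Eb1: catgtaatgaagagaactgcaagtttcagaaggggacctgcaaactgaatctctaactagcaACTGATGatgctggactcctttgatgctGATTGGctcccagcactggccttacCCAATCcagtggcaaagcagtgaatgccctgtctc
H2-DMb1: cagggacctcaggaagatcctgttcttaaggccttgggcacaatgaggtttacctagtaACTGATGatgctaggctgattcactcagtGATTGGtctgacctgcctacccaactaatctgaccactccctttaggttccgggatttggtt
H2-DMb2: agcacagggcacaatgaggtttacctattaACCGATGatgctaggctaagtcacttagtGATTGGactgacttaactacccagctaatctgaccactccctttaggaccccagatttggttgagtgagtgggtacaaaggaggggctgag
Ctss: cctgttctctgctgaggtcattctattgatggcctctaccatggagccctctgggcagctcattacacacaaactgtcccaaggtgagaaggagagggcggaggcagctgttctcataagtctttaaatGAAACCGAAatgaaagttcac
In H2-Eb1 the X box core began 88 bases and the Y box 60 bases before the start, and a Y box on the other strand lay at 35 bases. H2-DMb1 held the pair at 91 and 62 bases, and H2-DMb2 held it at 120 and 91 bases. H2-Aa held a Y box at 49 bases, and its only match to the X box core letters, on the other strand, lay outside the printed window at 232 bases. Whether H2-Aa holds an X box with other letters nearer its Y box was not tested. H2-Oa held an X box core at 137 and a Y box at 44 bases. H2-DMa had 2 promoter entries, of which 1 held a Y box at 199 bases, and no match to the X box core letters was found in either. Ctss held no Y box, an X box core at 206 bases outside the printed window and the response element core at 21 bases. Both strands of all 32851 promoter entries of 300 bases were searched. An X box core was in 9.85% of them, a Y box in 16.1% and the response element core in 8.56%. An X box core followed by a Y box 28 or 29 bases on was in 8 entries (0.0244%), a spacing chosen after these sequences were read. H2-Ab1, Cd74 and Ciita were not matched.

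Over all retained cells, RNA for the class II pathway was lower in the Shi-Bi-Man library, and most of that difference went with the kinds of cells present. The sum of H2-Aa, H2-Ab1, H2-Eb1 and Cd74, called summed class II below, stood at 15398 CPM in the imiquimod library and 4488 CPM in the Shi-Bi-Man library, a log2 ratio of -1.78 (-1.79 to -1.77). The ratios of the 9 genes lay between -0.62 for Ciita and -2.76 for H2-Oa, with a median of -1.65 against 0.04 for all 18082 genes with at least 20 counts. Summed counts per cell were 39.7 and 11.7. With every class held at its own summed counts per cell but weighted by the imiquimod library's class shares, the log2 ratio moved from -1.77 to -0.44. With the shares of the Shi-Bi-Man library it was -0.48. These are counts per cell and not CPM, so depth per cell enters them. In Langerhans cell-like cells, for example, median total counts were 2847 and 2065. Fewer antigen-presenting cells and less RNA per cell would look alike in such a sum, so the classes were described one by one.

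Cells were clustered without the class II and pathway genes, and clusters were named from markers, so the names end in -like. The marker genes were not left out of the clustering, so the same genes could shape and name a cluster. Langerhans cell-like cells carried all 7 of their markers and were led by Cd207, the langerin gene, with Tbc1d4, H2-M2 and Ccl22. They numbered 591 of 11019 (5.36%) in the imiquimod library and 68 of 7863 (0.865%) in the Shi-Bi-Man library. The monocyte and inflammatory cluster, led by Mpeg1, Cd300c2, Cd300a, Cybb and Cd14 with Il1b, held 1089 and 472 cells. The resident dermal macrophage cluster, led by Cd209f, Cd209g, Folr2 and Cd163, held 501 and 285. Blood endothelial-like cells numbered 504 and 248, and keratinocyte-like cells 2186 and 2614. No cluster was named dendritic cell. The 8 dendritic cell markers summed to 334 and 671 CPM in the monocyte and inflammatory cluster, where 8 of 8 had counts in each library. In Langerhans cell-like cells they summed to 1146 and 1599 CPM, with Xcr1 and Clec9a at 0 in both libraries. Dendritic cells within these clusters were not separated.

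**Figure D1:**
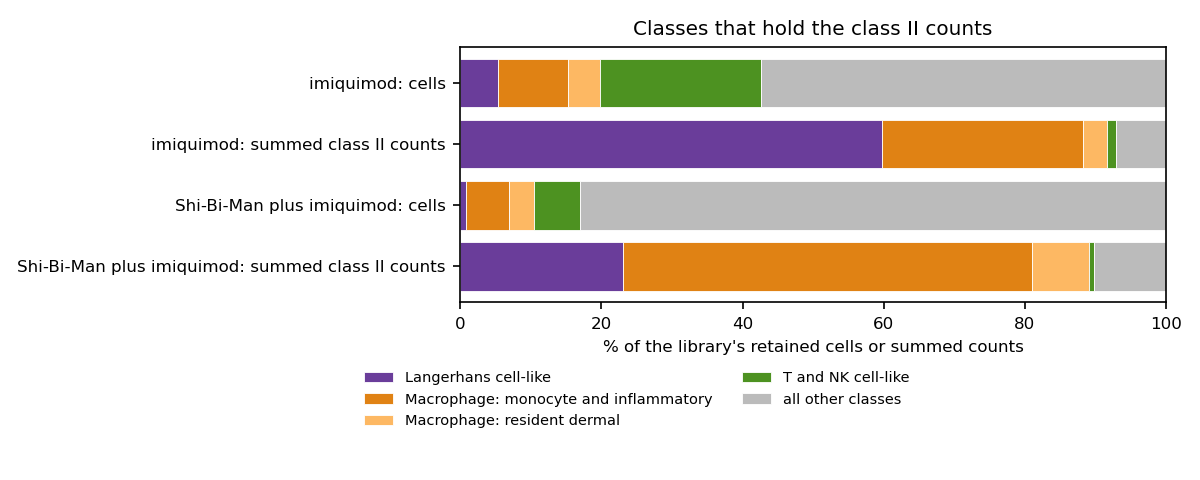
Share of all retained cells and of summed class II counts held by each cell class, as stacked percentages for the imiquimod and the Shi-Bi-Man library. Langerhans cell-like cells held 59.8% of the summed counts in the imiquimod library and 23.0% in the Shi-Bi-Man library, while monocyte and inflammatory cells held 28.4% and 58.1%.

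Langerhans cell-like cells, 5.36% of cells, held 59.8% of summed class II counts in the imiquimod library. In the Shi-Bi-Man library, at 0.865% of cells, they held 23.0%. Monocyte and inflammatory cells held 28.4% and 58.1%, and resident macrophages 3.39% and 8.04%. The main holder of class II RNA was thus a different class in each library. Ctss was divided differently from the chains: Langerhans cell-like cells held 30.02% and 6.64% of its counts, monocyte and inflammatory cells 48.4% and 54.4%, and resident macrophages 9.41% and 26.1%. For Ciita, Langerhans cell-like cells held 41.8% of 237 counts and 9.01% of 111, and monocyte and inflammatory cells held 32.9% and 48.6%. Of H2-Oa, 79 of 127 counts in the imiquimod library lay in Langerhans cell-like cells, and the Shi-Bi-Man library held 13 counts in all.

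The order of the classes by summed class II was the same at the top of both libraries. Langerhans cell-like cells came first at 146771 and 149947 CPM, and all macrophage and monocyte-like cells second at 51467 and 56560.2 CPM. Next came classes at 9345 CPM or less, and their order differed between libraries. In the imiquimod library Schwann and glia-like cells stood at 9345 CPM (74 cells), pericyte and smooth muscle-like cells at 4446 CPM and blood endothelial-like cells at 3499 CPM, and the intervals of mast cell-like cells overlapped those of the 2 latter classes. A few cells carried these sums: after each cell was thinned to 500 counts, 3 of the 74 Schwann and glia-like cells held 66.0% of that class's class II counts, and 1 of the 3 had a count of the leukocyte gene Ptprc or of Cd207. In pericyte and smooth muscle-like cells 3 of 230 held 54.3%, and all 3 had such a count. In the Shi-Bi-Man library pericyte and smooth muscle-like cells stood at 2251 CPM, with 3 of 194 cells holding 68.3% of the thinned counts, and lymphatic endothelial-like cells at 1607 CPM, and mast, T and NK and blood endothelial-like cells overlapped below them. The lowest class in both was sebaceous gland-like cells, at 808 and 223 CPM, whose interval overlapped that of melanocyte-like cells.

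**Figure D2:**
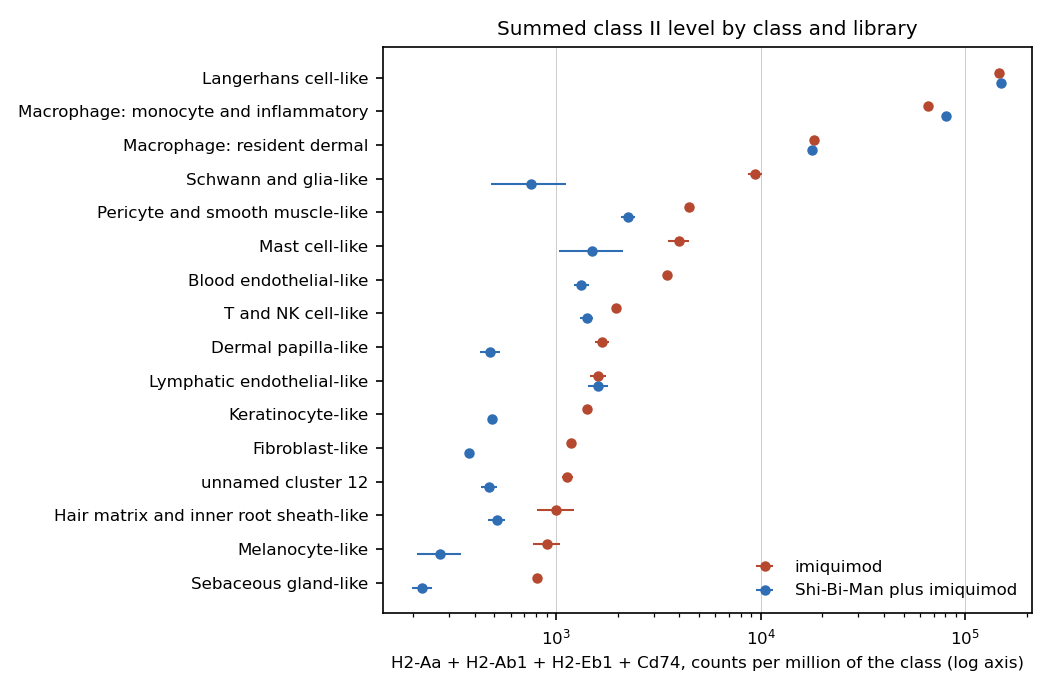
Summed level of H2-Aa, H2-Ab1, H2-Eb1 and Cd74 (CPM, log axis) in each cell class, with 1 point per library and bars for the 95% Poisson interval. The points of Langerhans cell-like cells (146771 and 149947 CPM) lie close together, while those of fibroblast-like cells (1179 and 376 CPM) and keratinocyte-like cells (1423 and 489 CPM) lie apart.

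Langerhans cell-like cells had nearly the same class II levels in both libraries, although there were far fewer of them in the Shi-Bi-Man library. Summed class II stood at 146771 CPM from 261688 counts and 149947 CPM from 21096 counts, a log2 ratio of 0.03 (0.01 to 0.05). Of the 9 genes, 0 were higher and 0 lower by 1.5-fold or more. Over all 7650 genes measured in the class, 21.5% were higher and 25.7% lower by that much, and the median of the 9 genes was 0.03 against -0.07. These cells had median counts of 2847 and 2065.

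H2-Aa, the alpha chain of I-A, stood at 17176 and 16269.8 CPM (-0.08; -0.14 to -0.02). H2-Ab1, its beta chain, stood at 22892 and 23626 CPM (0.05; -0.01 to 0.10), and H2-Eb1 at 11194 and 12254 CPM (0.13; 0.06 to 0.20). Cd74 stood at 95509 and 97797 CPM (0.03; 0.01 to 0.06). The chains and the invariant chain thus differed by at most 0.13 on the log2 scale. Among the peptide exchange genes, H2-DMa stood at 2517 and 2232 CPM (-0.17; -0.34 to -0.01) and H2-DMb1 at 648 and 661 CPM (0.04; -0.29 to 0.33). H2-Oa rested on 79 and 5 counts (-0.19; -1.98 to 0.96) and Ciita on 99 and 10 counts (0.42; -0.75 to 1.30), so neither direction was resolved at this depth.

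Ctss had the lowest ratio of the 9 genes in Langerhans cell-like cells. It stood at 1563 CPM from 2786 counts and 1144 CPM from 161 counts (-0.45; -0.69 to -0.22). After each cell was thinned to 500 counts, 53.5% of cells (49.4 to 57.6) and 33.8% (22.8 to 46.3) had a Ctss count, and no cell had to be left out. Without thinning the shares were 90.4% and 73.5%. Fibroblast-like cells, which should lack the gene, had thinned shares of 1.86% and 0.592% and median counts of 2162 and 2099. The thinned share for H2-DMa was 66.0% (62.0 to 69.8) and 48.5% (36.2 to 61.0). Cd207, the langerin gene, stood at 2871 and 5082 CPM (0.82; 0.71 to 0.94), so not all genes of these cells lay as close as the class II chains.

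Monocyte and inflammatory cells had somewhat more class II RNA in the Shi-Bi-Man library, with the chains, Cd74 and Ciita on the higher side and Ctss on the lower side. Summed class II stood at 65942 and 80685 CPM, which gives a log2 ratio of 0.29 (0.28 to 0.31). By the 1.5-fold rule 1 of 9 genes was higher, Ciita, and 0 were lower. Of all 9328 genes measured in the cluster 16.8% were higher and 14.7% lower, so a count of 1 is near what all genes show. The median of the 9 genes was 0.23 against 0.01. Median counts per cell were 1375 and 1151.5.

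H2-Aa stood at 8527 and 11282 CPM (0.40; 0.36 to 0.44), H2-Ab1 at 9736 and 12610.2 CPM (0.37; 0.34 to 0.41) and H2-Eb1 at 5808 and 7739 CPM (0.41; 0.37 to 0.46). Cd74 stood at 41871 and 49053 CPM (0.23; 0.21 to 0.25), so the invariant chain differed less than the 3 chains. H2-DMa was level at 1069 and 1077 CPM (0.01; -0.11 to 0.13), and H2-DMb1 stood at 552 and 603 CPM (0.13; -0.04 to 0.29). H2-Oa had 22 and 5 counts (-0.52; -2.38 to 0.81). Ctss stood at 2385 and 1995 CPM (-0.26; -0.35 to -0.17). The thinned share of cells with a Ctss count was 59.2% and 53.2%, and 82.3% and 71.0% without thinning.

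Ciita stood at 41.4 CPM from 78 counts and 81.8 CPM from 54 counts in this cluster, a log2 ratio of 0.99 (0.45 to 1.501). The counts came from 62 of 1089 cells (5.69%) and 44 of 472 cells (9.32%), and 1 cell held at most 3 and 5 of them. After thinning, the shares were 2.30% (1.49 to 3.37) and 2.75% (1.47 to 4.66), with 25 and 13 cells, so their intervals overlapped. In fibroblast-like cells the shares were 0.128% and 0.161% without thinning and 0.0641% and 0.0538% after it. The Ciita difference therefore rested on few counts, and at 500 counts per cell it was not resolved.

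The monocyte and inflammatory cluster was not uniform. At a finer resolution a cluster led by Mgl2, Clec7a, Cd14 and Il1b (558 and 178 cells) had summed class II of 78788 and 116093 CPM (0.56; 0.54 to 0.58). A cluster led by Ms4a7, Cd300c2 and Aif1 (411 and 134 cells) had 61351 and 66663 CPM (0.12; 0.09 to 0.15). A smaller cluster led by Ptprj, Gab2 and Syk (137 and 158 cells) had 24397 and 37088 CPM (0.60; 0.55 to 0.66). All 3 were higher in the Shi-Bi-Man library, by unequal amounts. Cd209a, a gene of monocyte-derived dendritic cells, stood at 503 and 911 CPM in the first of them. Ciita stood at 41.1 and 75.9 CPM (39 and 23 counts) in the first, 41.6 and 42.5 CPM (34 and 8 counts) in the second and 66.5 and 138.6 CPM (11 and 24 counts) in the last. B and plasma cell markers summed to 647 and 22.7 CPM in the whole cluster, and their part in its class II level was not tested.

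Resident dermal macrophages had about the same summed class II in both libraries, 18147 and 17893 CPM (-0.02; -0.06 to 0.02). Ctss, however, was higher in the Shi-Bi-Man library, at 1067 CPM from 873 counts and 1537 CPM from 633 counts (0.53; 0.38 to 0.68). Of the 8 genes with at least 20 counts, 0 were higher and 1 lower by 1.5-fold or more, against 14.3% and 13.8% of all 7175 genes. The 1 was Ciita, with 16 and 5 counts (-0.59; -2.49 to 0.83), whose interval spans 0. The median of the 8 genes was 0.15 against 0.03. Median counts per cell were 1448 and 1301.

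H2-Aa stood at 2416 and 2576 CPM (0.09; -0.02 to 0.20) in resident macrophages, H2-Ab1 at 2291 and 2651 CPM (0.21; 0.10 to 0.32) and H2-Eb1 at 1661 and 1522 CPM (-0.12; -0.26 to 0.01). Cd74 stood at 11780.0 and 11145 CPM (-0.08; -0.13 to -0.03). These genes did not move in one direction. H2-DMa stood at 309 and 401 CPM (0.38; 0.08 to 0.66) and H2-DMb1 at 130 and 153 CPM (0.24; -0.23 to 0.70). H2-Oa had 0 counts in 501 and 285 cells, which allows a share of cells with a count of up to 0.599% and 1.05%. The thinned share of cells with a Ctss count was 36.1% (31.9 to 40.5) and 46.3% (40.4 to 52.3), and 70.1% and 73.7% without thinning.

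Ctss thus had ratios of -0.45, -0.26 and 0.53 in Langerhans cell-like cells, monocyte and inflammatory cells and resident macrophages. The intervals of the first pair overlapped, and that of resident macrophages overlapped neither. This difference between classes was not tested over replicates. Ctss was also set against Cd74 within each library, which does not depend on the class total, and there too it was lower in the Shi-Bi-Man library in the first pair of classes and higher in resident macrophages. Per 100 Cd74 counts, Ctss had 1.64 (1.58 to 1.70) and 1.17 (0.995 to 1.37) in Langerhans cell-like cells. It had 5.70 (5.53 to 5.87) and 4.07 (3.85 to 4.30) in monocyte and inflammatory cells, and 9.06 (8.44 to 9.71) and 13.8 (12.7 to 14.99) in resident macrophages.

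The other genes were compared in the same way, as counts per 100 Cd74, since 3' counts do not rank genes against each other. H2-DMa had a like ratio in the 3 classes of the imiquimod library, at 2.63 in Langerhans cell-like cells, 2.55 in monocyte and inflammatory cells and 2.62 in resident macrophages. In the Shi-Bi-Man library it had 2.28, 2.20 and 3.59 (3.06 to 4.20), so resident macrophages stood above the others there. H2-DMb1 had 0.678 and 0.676 in Langerhans cell-like cells, 1.32 and 1.23 in monocyte and inflammatory cells and 1.10 and 1.37 in resident macrophages. H2-DMb2 had its highest ratio in Langerhans cell-like cells, where that of H2-DMb1 was lowest: 0.681 and 0.538 in Langerhans cell-like cells, 0.188 and 0.204 in monocyte and inflammatory cells and 0.0830 and 0.0436 in resident macrophages. Langerhans cell-like cells therefore had about equal counts of both copies, 1155 of H2-DMb1 and 1159 of H2-DMb2 in the imiquimod library, while resident macrophages had 106 and 8. The copies are near-identical in sequence, and H2-Eb1 and H2-Eb2 are related genes. Counting could split reads between such genes, so the division between H2-DMb1 and H2-DMb2 is uncertain. H2-Oa had 0.0464 and 0.0363 in Langerhans cell-like cells and 0.0279 and 0.0154 in monocyte and inflammatory cells. Ciita had 0.0581 and 0.0727, 0.0989 and 0.167, and 0.166 and 0.109 in the 3 classes, with overlapping intervals in all but the monocyte and inflammatory cluster. H2-Aa had 18.0 and 16.6 in Langerhans cell-like cells, 20.4 and 23.0 in monocyte and inflammatory cells and 20.5 and 23.1 in resident macrophages.

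**Figure D3:**
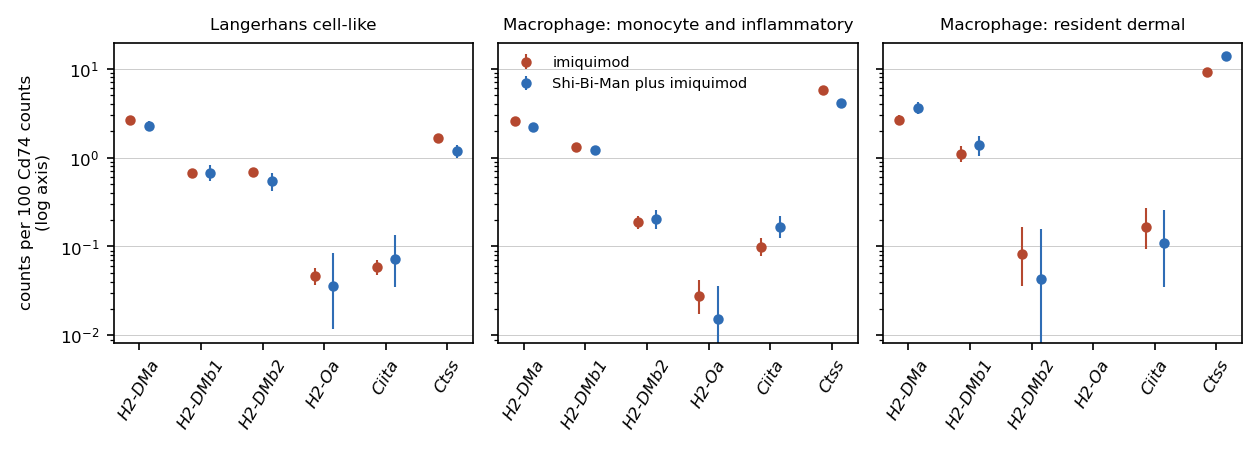
Counts of H2-DMa, H2-DMb1, H2-DMb2, H2-Oa, Ciita and Ctss per 100 Cd74 counts (log axis) in Langerhans cell-like cells, monocyte and inflammatory cells and resident dermal macrophages, 1 point per library with 95% intervals. Ctss climbs from 1.64 to 5.70 to 9.06 over the 3 classes in the imiquimod library while H2-DMb2 goes from 0.681 to 0.188 to 0.0830, and the lower bars of genes with few counts run off the axis.

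Within the classes, cells differed widely in class II RNA, and this spread was larger than the difference between libraries. After thinning to 500 counts, the median Langerhans cell-like cell had 78 summed class II counts (quartiles 64 and 92.5) in the imiquimod library and 81 (56 and 96) in the Shi-Bi-Man library. At least 10 such counts were present in 98.5% and 94.1% of these cells. Monocyte and inflammatory cells had medians of 26 and 28, with quartiles of 7 and 52 and of 11 and 55, and 72.0% (69.2 to 74.6) and 77.8% (73.7 to 81.4) had at least 10. Resident macrophages had medians of 3 and 4, and 31.5% and 34.4% had at least 10. Most of their cells thus held little class II RNA and a minority held most of it, in both libraries. Without thinning, the medians were 436 and 306 in Langerhans cell-like cells, 77 and 67 in monocyte and inflammatory cells and 9 and 11 in resident macrophages. At least 1 count was found in 38.7% and 16.7% of fibroblast-like cells after thinning, and in 79.2% and 46.0% without it.

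**Figure D4:**
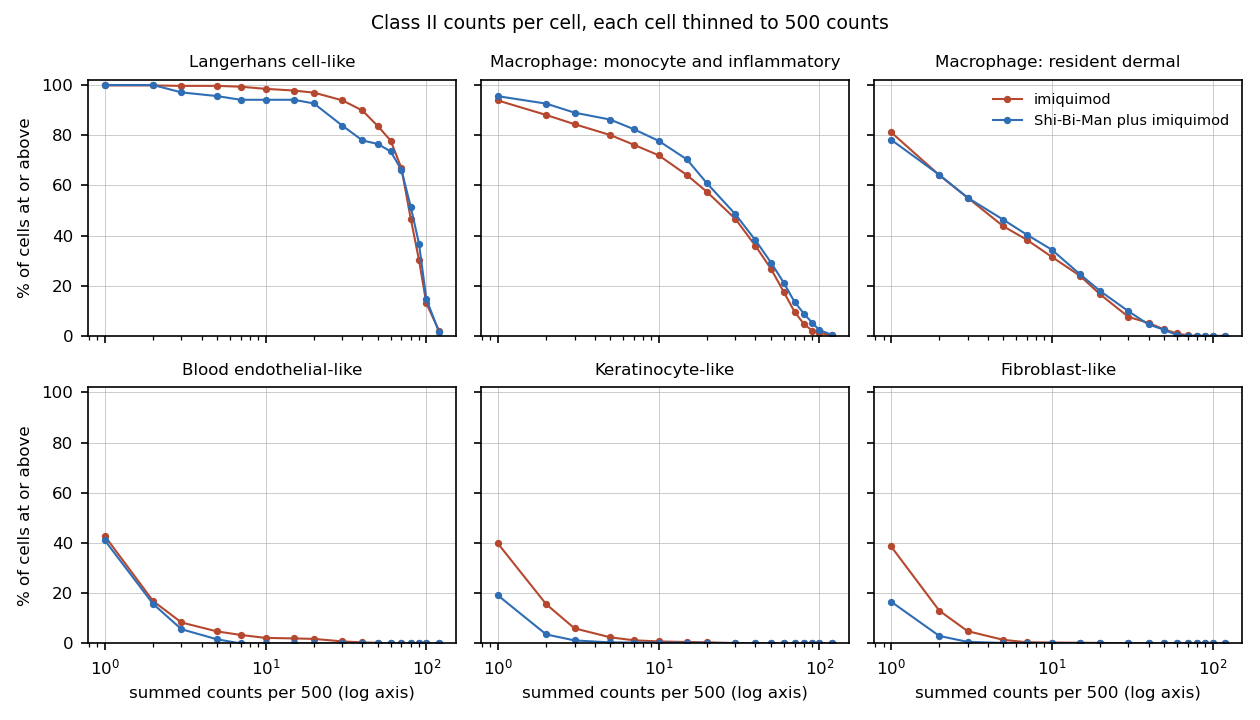
Percentage of cells (y axis) with at least the number of summed class II counts on the x axis (log axis), each cell thinned to 500 counts, by class and library. The curves of both libraries run close together in Langerhans cell-like cells, with medians of 78 and 81, and in resident macrophages, with medians of 3 and 4, and lie apart in fibroblast-like cells, where 38.7% and 16.7% of cells had at least 1 count.

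Blood endothelial-like cells had less summed class II in the Shi-Bi-Man library over all cells of the class. Their sum was no lower when cells with a count of Ptprc or Cd207 were left out, although H2-Ab1 still was. Ptprc encodes the leukocyte antigen CD45. Over all cells, summed class II stood at 3499 and 1326 CPM, which gives a log2 ratio of -1.40 (-1.53 to -1.27). Of the 7 genes with at least 20 counts, 0 were higher and 6 lower by 1.5-fold or more, against 13.5% and 18.7% of all 7895 genes, and their median was -1.72 against -0.05. H2-Aa stood at 409 and 116 CPM (-1.80), H2-Ab1 at 563 and 169 CPM (-1.72), H2-Eb1 at 253 and 67.8 CPM (-1.88) and Cd74 at 2273 and 973 CPM (-1.22; -1.38 to -1.07). H2-DMa had 72 and 12 counts (-0.998; -2.06 to -0.15), H2-DMb1 23 and 11 (0.51; -0.71 to 1.57) and Ctss 65 and 2 (-3.17; -6.56 to -1.57). H2-Oa had 2 and 0 counts, and Ciita had 0 and 1, where 0 of 504 cells allows a share of up to 0.595%.

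A few cells carried much of this endothelial sum in the imiquimod library. After thinning, 11 of 504 cells had at least 10 summed counts and held 47.2% of the class's thinned class II counts. Of these 11, 10 had a Ptprc or Cd207 count, and their median doublet score was 0.25 against 0.04 in the other 493. Of the 248 cells in the Shi-Bi-Man library 0 were so high, which allows a share of up to 1.21%. A single cell of the imiquimod library held 581 of the 4199 unthinned summed counts (13.8%). Langerhans cell markers had counts for 7 of 7 genes in the imiquimod library and 4 of 7 in the Shi-Bi-Man library, summing to 402 and 179 CPM, with Ltc4s, H2-M2 and Itgax at 0 in the latter. T and NK cell markers summed to 662 and 228 CPM, and macrophage and monocyte markers to 432 and 322 CPM. Cd207 itself had 60 and 2 counts.

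The class was therefore summed again without the 72 cells (14.3%) and 4 cells (1.61%) that had a Ptprc or Cd207 count, a choice made after the data were seen. Summed class II then stood at 1187 CPM from 1132 counts and 1333 CPM from 542 counts, a log2 ratio of 0.17 (0.02 to 0.32). Cd74 was higher in the Shi-Bi-Man library, at 731 and 984 CPM (0.43; 0.25 to 0.61). The chains were level or lower, with H2-Aa at -0.12 (-0.65 to 0.36), H2-Ab1 at 234 and 167 CPM (-0.48; -0.90 to -0.09) and H2-Eb1 at -0.50 (-1.20 to 0.11). H2-DMa stood at 0.26 (-0.90 to 1.29), and H2-DMb1, with 10 and 11 counts, at 1.36 (-0.01 to 2.76). The difference in the endothelial sum thus changed direction when these 72 and 4 cells were left out. Cd74 made up 697 of the 1132 and 400 of the 542 counts. The ratios of the 3 chains stayed below 0, with intervals spanning 0 for H2-Aa and H2-Eb1. With a doublet score threshold of 0.25 in both libraries, chosen as an alternative to the caller, the ratio of summed class II was -0.31.

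Class II counts also occurred in cells that should lack them, and more so in the imiquimod library, so the endothelial level was set against fibroblast-like cells treated the same way. Fibroblast-like cells without a Ptprc or Cd207 count had 1047 and 364 CPM of summed class II. Endothelial-like cells stood 1.13-fold (1.06 to 1.21) above them in the imiquimod library and 3.66-fold (3.31 to 4.04) above them in the Shi-Bi-Man library. For Cd74 the folds were 1.16 (1.06 to 1.26) and 4.87 (4.31 to 5.50). The share of endothelial-like cells with a Cd74 count after thinning was 28.2% (24.0 to 32.7) and 30.7% (25.01 to 36.9), against 26.0% and 10.3% in fibroblast-like cells. Without thinning it was 60.6% and 52.0%, against 62.2% and 29.7%, with median counts of 1719.5 and 1242 against 2112 and 2076. In the imiquimod library the endothelial share was close to the fibroblast-like share. Whether counts at that level came from the cells themselves or from free RNA was not tested. A difference in endothelial expression between libraries was therefore not resolved.

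Without the cells with a Ptprc or Cd207 count, H2-Eb1 in blood endothelial-like cells was not raised over fibroblast-like cells to the same degree as Cd74: its fold was 0.811 (0.636 to 1.02) and 1.43 (0.902 to 2.11), and that of H2-Ab1 was 1.29 and 2.49. Pericyte and smooth muscle-like cells stood at 4446 and 2251 CPM with all cells and 928 and 944 CPM without the marked cells (0.03; -0.23 to 0.28), which was 0.887-fold and 2.60-fold the fibroblast-like level. Lymphatic endothelial-like cells without the marked cells stood at 1.11-fold (0.985 to 1.25) and 2.18-fold (1.83 to 2.57). Summed class II above the fibroblast-like level in the Shi-Bi-Man library was therefore also seen in pericyte and lymphatic cells. These folds are in CPM, so depth per cell enters them. Median counts over all cells were 1190 and 893.5 in these classes, against 2099 in fibroblast-like cells. Of the 3 pericyte and smooth muscle-like cells that held 68.3% of the thinned counts, only 2 had a Ptprc or Cd207 count. Lyz2 without the marked cells stood at 144 CPM in that class and 45.5 CPM in fibroblast-like cells.

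At the finer resolution the endothelial cells divided into a venular cluster, led by Selp, Sele and Ackr1 (242 and 169 cells), and a capillary and arterial cluster, led by Gpihbp1, Sox17 and Cd93 (262 and 79 cells). The venular cells had summed class II of 1712 and 1532 CPM (-0.16; -0.33 to 0.01), and 1433 and 1531 CPM (0.10; -0.09 to 0.28) without the marked cells. The capillary and arterial cells had 4895 and 918 CPM (-2.41; -2.68 to -2.16), and 1009 and 931 CPM (-0.11; -0.41 to 0.17) without them. The lower endothelial level thus lay in the capillary and arterial cluster, and there it was gone without the marked cells. Cd74 in venular cells without the marked cells stood at 910.3 and 1149 CPM (0.34; 0.11 to 0.56).

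**Figure D5:**
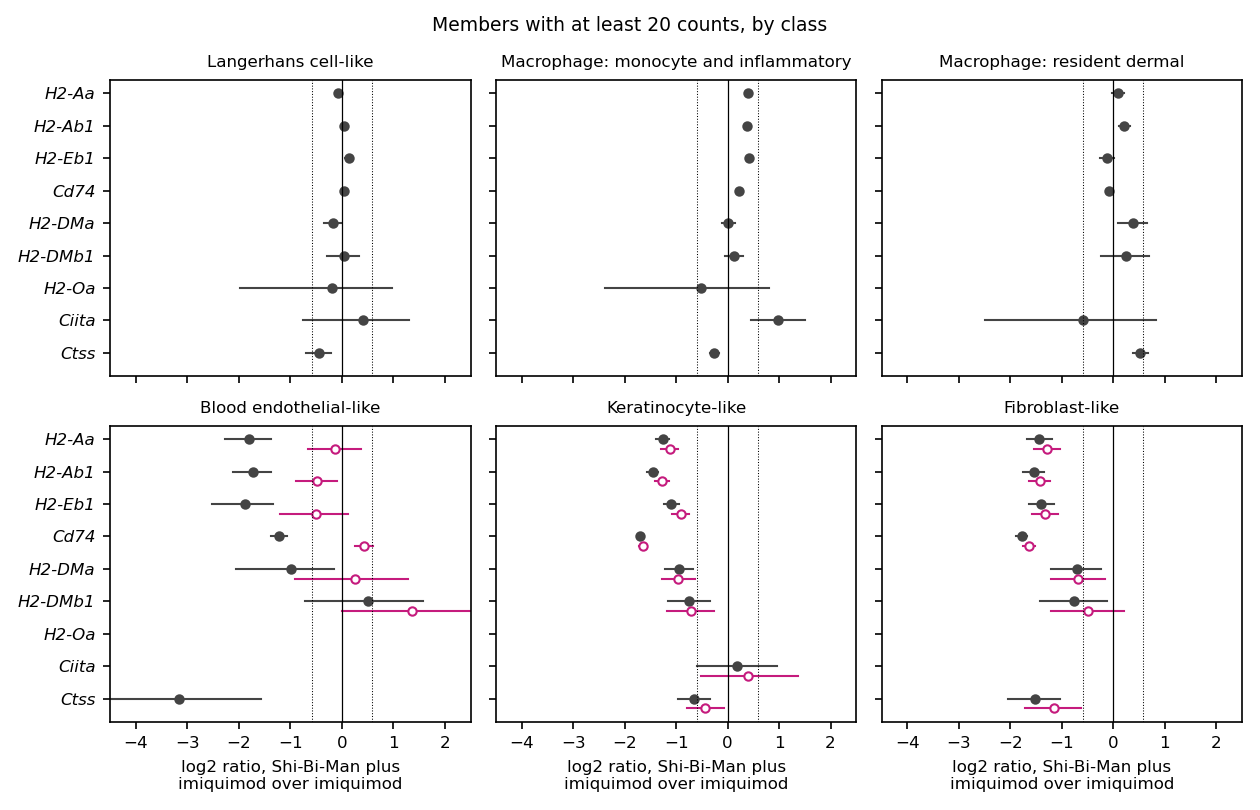
Log2 ratio (Shi-Bi-Man over imiquimod library) of each gene with at least 20 counts, by class, with 95% intervals from counting error and dotted lines at 1.5-fold. Hollow points are the same ratios without cells that had a Ptprc or Cd207 count: in blood endothelial-like cells Cd74 moves from -1.22 to 0.43, while in keratinocyte-like cells it stays near -1.70 (-1.65 without them). The intervals of Ctss and of H2-DMb1 (hollow) in endothelial cells run past the axis.

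Lymphatic endothelial-like cells had equal summed class II, 1604 CPM from 475 counts in 155 cells and 1607 CPM from 328 counts in 160 cells (0.00; -0.20 to 0.21). Of 5 genes with at least 20 counts 1 was higher, H2-DMa, and 0 were lower, against 18% and 14.1% of all 4324 genes, and their median was 0.16 against 0.04. H2-DMa had 8 and 23 counts, or 27.0 and 113 CPM (2.004; 0.85 to 3.43), in 6 and 12 cells, and 1 cell of the Shi-Bi-Man library held 10 of the 23 (43.5%). The same library had 1 cell with 110 of the 328 summed counts (33.5%). Without cells that had a Ptprc or Cd207 count, summed class II was 1164 and 793 CPM (-0.55; -0.84 to -0.27), and H2-DMa had 5 and 22 counts.

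Keratinocyte-like cells had less class II RNA in the Shi-Bi-Man library, and in both libraries their summed class II stood close to that of fibroblast-like cells, which should lack it. Over all cells their Ciita stood above that of fibroblast-like cells. Summed class II stood at 1423 CPM from 13899 counts and 489 CPM from 4653 counts (-1.54; -1.59 to -1.49). Of 8 genes with at least 20 counts 0 were higher and 7 lower, against 13.9% and 12.7% of all 14237 genes, and their median was -1.02 against -0.03. H2-Aa stood at 160 and 66.5 CPM (-1.26), H2-Ab1 at 248.8 and 90.5 CPM (-1.46), H2-Eb1 at 126 and 58.9 CPM (-1.10) and Cd74 at 889 and 273 CPM (-1.70; -1.76 to -1.64). H2-DMa stood at 33.0 and 17.1 CPM (-0.94), H2-DMb1 at -0.75 (-1.16 to -0.35) and Ctss at 24.6 and 15.7 CPM (-0.65; -0.95 to -0.35). Ciita, with 29 and 32 counts (0.18; -0.59 to 0.96), was the exception among the 8. It stood at 2.97 CPM (1.99 to 4.26) and 3.37 CPM (2.30 to 4.75), above fibroblast-like cells with 0.526 CPM (0.0637 to 1.90) and 0.724 CPM (0.149 to 2.12) from 2 and 3 counts. Without cells that had a Ptprc or Cd207 count the keratinocyte level was 2.14 CPM (1.27 to 3.38) and 2.84 CPM (1.84 to 4.19), from 18 and 25 counts, and these intervals overlapped those of fibroblast-like cells, at 0.60 CPM (0.0726 to 2.17) and 0.758 CPM (0.156 to 2.21). Different clusters held most of this class in the libraries: spinous cells numbered 21 and 901, granular cells 0 and 145 and upper hair follicle cells 615 and 126.

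Fibroblast-like cells moved with the keratinocytes. Their summed class II stood at 1179 and 376 CPM (-1.65; -1.73 to -1.57), and of 7 genes 0 were higher and 7 lower, against 9.4% and 12.3% of all 12328 genes, and the median was -1.43 against -0.02. Cd74 in them stood at 720.4 and 210.1 CPM (-1.78; -1.89 to -1.67). Without cells with a Ptprc or Cd207 count, keratinocyte-like cells stood at 1055 and 388 CPM (-1.44) and fibroblast-like cells at 1047 and 364 CPM (-1.52). The keratinocyte level was then 1.01-fold (0.969 to 1.05) and 1.07-fold (1.002 to 1.13) the fibroblast-like level. Whether counts at this level came from the cells themselves or from free RNA was not tested. No difference in summed class II of keratinocyte-like cells as a whole was measurable above the fibroblast-like level. Thinned, 39.8% and 19.2% of keratinocyte-like cells had at least 1 summed count, against 38.7% and 16.7% of fibroblast-like cells, and the shares without thinning were 87.8% and 58.5% against 79.2% and 46.0%. The median counts were 3447.5 and 3065.5 against 2162 and 2099.

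The 3 keratinocyte clusters with at least 50 cells in each library that could be named differed in how far they stood from this level. Follicle stem and outer root sheath cells (693 and 710) had 1367 and 463 CPM (-1.56; -1.67 to -1.45), with 0 of 7 genes higher and 4 lower, against 19.1% and 9.52% of all genes in that cluster. Cells high in stress keratins (782 and 427) had 1455 and 429.9 CPM (-1.76; -1.88 to -1.64), with 0 of 8 genes higher and 8 lower, against 18% and 13.5%. Upper hair follicle cells (615 and 126) had 1303 and 787 CPM (-0.73; -0.88 to -0.57), with 1 of 7 genes higher, Ctss at 51 and 13 counts, and 3 lower, against 23.2% and 11.9%. Without cells with a Ptprc or Cd207 count, upper hair follicle cells were at 0.972-fold (0.925 to 1.02) the fibroblast-like level in the imiquimod library and 2.23-fold (1.98 to 2.497) in the Shi-Bi-Man library. Cd74 there was 1.05-fold and 2.48-fold. In the Shi-Bi-Man library, however, 1 of the 126 upper hair follicle cells held 43.3% of the cluster's thinned class II counts. This cell had no Ptprc or Cd207 count, so it was not left out of the 2.23-fold value. With marked cells left out, Lyz2 was at 46.1 and 137 CPM in this cluster, while the fibroblast-like class had 75.9 and 45.5 CPM. Whether the cluster as a whole stood above the fibroblast-like level was not tested. Sebaceous gland-like cells were below fibroblast-like cells in both, at 0.670-fold and 0.580-fold. These folds are in CPM, so depth per cell enters them. Over all cells, median counts were 1961 and 3034.5 in sebaceous gland-like cells and 2162 and 2099 in fibroblast-like cells.

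The route from interferon-gamma to Ciita was then described by its receptor genes, the kinase gene Jak2, Irf1 and Socs1, with the rule of 1.5-fold and the shares of all genes given above for each class. In monocyte and inflammatory cells Irf1, a transcription factor that acts on the Ciita promoter, was higher, with 126 and 107 counts (1.28; 0.89 to 1.66). Socs1, a feedback inhibitor, was also higher there, with 55 and 36 counts (0.91; 0.25 to 1.53), while the receptor gene Ifngr1 stood at -0.36. In Langerhans cell-like cells Irf1 (47 and 10 counts; 1.49, 0.28 to 2.43) and Socs1 (114 and 20 counts; 1.18, 0.39 to 1.85) were higher, and Ifngr1 (159 and 4 counts; -1.48, -3.54 to -0.26) and Ifngr2 (130 and 5 counts; -0.90, -2.68 to 0.22) were lower. In resident macrophages Jak2 stood at 0.50 (-0.71 to 1.64) and Irf1 at 0.44 (0.07 to 0.81), both under 1.5-fold. In blood endothelial-like cells Irf1 stood at 255 and 496 CPM (0.96; 0.70 to 1.22) and Jak2 at 190.0 and 373 CPM (0.97; 0.67 to 1.27), while Ifngr2 stood at -0.68 (-2.06 to 0.37). Irf1 was thus past 1.5-fold in 3 of these 4 classes.

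The promoter factors that bind the X and Y boxes did not share a direction. For this list and those after it, 16.8% of all genes were higher and 14.7% lower in monocyte and inflammatory cells. The shares were 21.5% and 25.7% in Langerhans cell-like cells, 14.3% and 13.8% in resident macrophages and 13.5% and 18.7% in blood endothelial-like cells. In monocyte and inflammatory cells 1 of 6 was higher, Nfya (0.88; 0.12 to 1.61), and 2 were lower, Rfxap with 70 and 9 counts (-1.38; -2.63 to -0.44) and Nfyc (-0.64; -1.72 to 0.23). In Langerhans cell-like cells 1 of 5 was higher and 2 lower, in resident macrophages 0 of 5 were higher and 1 lower, and in blood endothelial-like cells 2 of 5 were higher and 1 lower. The list's medians were -0.16, -0.50, -0.15 and 0.06 in the order named. Of the endosomal proteases and the reductase Ifi30, 0 of 7 were past 1.5-fold in monocyte and inflammatory cells, resident macrophages and blood endothelial-like cells, and 1 of 7 was higher in Langerhans cell-like cells, Ctsl with 65 and 8 counts (0.72; -0.63 to 1.70). The protease gene Ctsb stood at 1745 and 2496 CPM in monocyte and inflammatory cells (0.52; 0.43 to 0.60) and Ifi30 at -0.50 (-0.73 to -0.27). Cst3, the cathepsin inhibitor cystatin C, stood at -0.38 (-0.45 to -0.31) in Langerhans cell-like cells, beside the lower Ctss.

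Of the turnover and costimulation list, 2 of 6 genes were higher in monocyte and inflammatory cells, Cd86 at 173 and 327 CPM (0.92; 0.67 to 1.18) and March8 with 24 and 13 counts (0.65; -0.47 to 1.66), and 1 was lower, Cd80 with 108 and 17 counts. In Langerhans cell-like cells 2 of 5 were higher and 0 lower, against 21.5% and 25.7% of all genes. Cd83, which stabilises surface class II, stood at 1520.5 and 3219.8 CPM (1.08; 0.94 to 1.23) and Cd80 at 105 and 185 CPM (0.84; 0.17 to 1.41). Cd80 thus pointed in opposite directions in these cells. In resident macrophages 1 of 6 was higher, Cd40 (0.70; 0.06 to 1.33), and 0 lower. In blood endothelial-like cells 0 of 3 were higher and 2 lower, Cd86 with 23 and 1 counts (-2.43; -8.35 to -0.36) and Cd83 with 51 and 6 (-1.45; -3.06 to -0.33). The only measured gene of the other class II region genes there was H2-DMb2, with 26 counts and 0. These 3 genes were counted over all endothelial cells, marked cells included.

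Class I presentation was given beside class II, as the other antigen route. Nlrc5, the class I transactivator and a relative of Ciita, was past 1.5-fold and higher in all 4 classes described: 42 and 40 counts in monocyte and inflammatory cells (1.44; 0.78 to 2.10), 12 and 24 in resident macrophages (1.96; 0.93 to 3.12), 31 and 22 in blood endothelial-like cells (1.05; 0.19 to 1.88) and 19 and 3 in Langerhans cell-like cells, where the interval spans 0 (1.19; -1.40 to 2.77). Tap1, a subunit of the peptide transporter, was higher in the first 3 of them (0.77, 0.67 and 0.85). By list, 2 of 9 genes were higher and 0 lower in monocyte and inflammatory cells, 3 and 1 in resident macrophages and 2 and 0 in blood endothelial-like cells. The medians were 0.21, 0.52 and 0.21, against 0.01, 0.03 and -0.05 for all genes. In Langerhans cell-like cells 2 of 9 were higher and 4 lower, against 21.5% and 25.7% of all genes, and the median was -0.17 against -0.07. Those lower included the immunoproteasome genes Psmb8, at 734 and 313 CPM (-1.21; -1.70 to -0.80), and Psmb9 (-0.96; -2.18 to -0.08), and H2-K1 was higher (0.59; 0.37 to 0.80).

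The genes whose levels most resembled summed class II over 26 sums of a class in a library were Alox5ap (Pearson r 0.955), Cd86 (0.949), Tyrobp (0.934), Gm6377 (0.926), Csf1r (0.925), Cd83 (0.923), Alox5 (0.923), Cfp (0.916), Clec7a (0.916) and Spi1 (0.913). They were ranked among 9476 genes with at least 500 counts, on log2 (CPM + 1). The sums of a library share its depth and free RNA, so r is a description. Of the members themselves, Cd74 reached 0.999, the 3 chains 0.988 to 0.995, H2-DMa 0.947, Ctss 0.932 and H2-DMb1 0.924, with their own counts in the sum for the first 4. Alox5ap, which encodes the activating protein of 5-lipoxygenase, stood at 1119 and 810.3 CPM in Langerhans cell-like cells and 14.7 and 8.69 CPM in fibroblast-like cells.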

How the data were processed

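Single-cell 3' RNA profiles of 2 libraries of mouse dorsal skin were used, and groups came from the treatment in the labels. Each deposited matrix lists whole-number counts by gene and cell barcode, as its header line states, and every retained cell had at least 500 counts. The submitters' processing notes name the builds mm10 and GRCm38. How reads were aligned and counted, how cells were called and whether molecules were collapsed is not given in the sources used here, so a count is the number the authors deposited.

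Barcodes with under 200 genes (192 and 7) or over 20% mitochondrial counts (105 and 101) were left out. Scrublet was run at an assumed doublet rate of 0.08. After scaling to 10000 counts a cell and taking logs, 2000 variable genes were chosen, with the class II and pathway genes left out. They gave 30 principal components, 15 neighbours and Leiden clusters at resolution 1 (scanpy 1.11.5, igraph 0.11.9). A cluster was named from at least 3 markers that were 2-fold or more higher than in other cells and present in 10% of its cells. Counts were then summed per class and library. Ratios were conditional binomial, levels Poisson and shares Clopper-Pearson, each with a 95% interval (scipy 1.17.1), and 0.5 was added to the counts of point estimates. A gene counted as measured with at least 20 counts over both libraries, and as higher or lower from 1.5-fold. The level that a count of 0 allows was set at 3 counts. For shares of cells, each cell was thinned to 500 counts. The calculation was tested on simulated counts.

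The genes named are the 9 class II genes in every class described, up to 4 genes of each pathway list with the largest log2 ratio in size, and the 10 genes whose log2 (CPM + 1) over class sums of at least 50 cells had the highest Pearson r with summed class II. An item of the interferon-gamma list is not reported here, so no count or median of that list is given. The 9 genes, the lists and the rules were chosen with earlier results of these data known. Cd209a, Ptprc and Cd207, the finer clusters and the motif spacing were chosen after values were seen. Gene positions came from GENCODE vM21. Promoters were matched by symbol in RefSeq on GRCm38.p6. Alternatives covered the filters, doublets, resolution, number of components, scaling (with edgeR 4.0.16 for TMM), thinning, fold, minimum count and subtraction of free RNA. Each group held 1 library, so intervals cover counting error only and treat counts as independent.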

Additional observations from a re-analysis of the deposited data

Results flagged for a closer look

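The log2 ratio of H2-DMa, the alpha subunit of the peptide exchange protein H2-DM, was 2.004 in lymphatic endothelial-like cells, with an interval above 0. In 9 other classes or clusters it was lower by 1.5-fold or more with an interval below 0: -1.57 in pericyte and smooth muscle-like cells, -1.21 in sebaceous gland-like cells, -1.16 in dermal papilla-like cells, -0.998 in blood endothelial-like cells, -0.94 in keratinocyte-like cells and -0.71 in fibroblast-like cells, and, among the keratinocyte clusters, -1.53 in upper hair follicle cells, -1.18 in cells high in stress keratins and -1.04 in cluster 18. Under 1.5-fold, the interval lay below 0 in Langerhans cell-like cells as well (-0.17; -0.34 to -0.01) and above 0 in resident dermal macrophages (0.38; 0.08 to 0.66). The keratinocyte clusters are parts of the keratinocyte-like class, so the 9 overlap. With 1 library in each group the difference between these classes was not tested. The lymphatic value rested on 8 and 23 counts, and 10 of the 23 came from 1 cell. Without cells that had a Ptprc or Cd207 count it was 2.43 (1.10 to 4.29), from 5 and 22 counts. The same step gave 0.26 (-0.90 to 1.29) in blood endothelial-like cells and -0.58 (-2.31 to 0.83) in pericyte and smooth muscle-like cells, both spanning 0. The interval stayed below 0 in sebaceous gland-like, keratinocyte-like, fibroblast-like, upper hair follicle and stress keratin high cells. It was not run in dermal papilla-like cells or cluster 18.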

How the results depend on the processing

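No paired analysis was possible because each group held 1 library. The log2 ratios of summed class II over the alternatives tried ran from -0.04 to 0.15 in Langerhans cell-like cells, 0.15 to 0.37 in monocyte and inflammatory cells apart from resolution 2, -0.07 to 0.15 in resident macrophages, -1.43 to 2.79 in blood endothelial-like cells and -1.66 to 1.47 in keratinocyte-like cells. Those that left the counting interval were as follows.

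For the class II summed level in Langerhans cell-like cells the ratio was 0.054 with at most 10% mitochondrial counts, 0.070 with at least 500 genes, 0.062 with pathway genes among the variable genes, 0.15 with TMM and with median-of-ratios factors, and -0.044 as a mean over cells. Both scalings shifted the log2 scale of this class by -0.12, so that its ratios stood higher by that much, and with them H2-Aa stood at 0.040 and 0.041; Cd74 stood at -0.058 as a mean over cells. In monocyte and inflammatory cells it was 0.36 with at least 500 genes, 0.33 with doublets kept, 0.24 with the doublet score threshold, 0.37 with 20 components, 0.15 as a mean over cells and 0.31 with the fibroblast-like level subtracted; at resolution 2 there were 3 clusters in its place, and the only one that took this name from its markers was at 0.56, the others at 0.12 and 0.60. In resident macrophages it was 0.028 with at least 500 genes, 0.027 at resolution 0.5, 0.15 with 20 components, -0.066 with pathway genes allowed, 0.051 as a mean over cells, 0.024 with 5% of the all-cell profile subtracted and 0.046 with the fibroblast-like level subtracted; Cd74 there stood at 0.084 with 20 components and 0.0032 as a mean over cells.

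In blood endothelial-like cells the class II summed level had a ratio of -1.25 with at least 500 genes, -0.31 with the doublet score threshold, -0.85 as a mean over cells, 0.17 without cells with a Ptprc or Cd207 count, and 2.79 when the fibroblast-like level was also subtracted. H2-DMa stood at 0.050 with the score threshold, 0.26 without those cells and 2.87 with subtraction too, Cd74 at 0.43 and 2.96 under the latter pair, and H2-Aa at 2.65 and H2-Ab1 at 0.95 with both. In keratinocyte-like cells it was -1.66 with at most 10% mitochondrial counts, -1.48 with doublets kept, -1.43 as a mean over cells, -1.30 with 5% of the all-cell profile and -1.10 with the fibroblast-like level subtracted, -1.44 without the marked cells and 1.47 with both, a difference between levels of 8.64 and 24.0 CPM; Ctss stood at 0.24 with 5% subtracted. The 2 alternatives with marked cells left out were chosen after seeing the data.

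Of the 9 genes, the 1 past 1.5-fold in monocyte and inflammatory cells became 0 at 2-fold and 2 with at most 10% mitochondrial counts, the score threshold, the named cluster of resolution 2, a mean over cells or either subtraction. The 1 in resident macrophages became 0 at 2-fold, with at least 50 counts, the score threshold, resolution 0.5 or 2, or 20 components. The 0 in Langerhans cell-like cells became 1 as a mean over cells. In blood endothelial-like cells the 6, all lower, became 2 without the marked cells, H2-DMb1 higher (1.36; 10 and 11 counts) and Ctss lower (-0.84; 10 and 2 counts), both with intervals spanning 0, and in keratinocyte-like cells 7 became 4 at 2-fold or under either subtraction and 1 with both. The cause was not tested. Of 90 shares of cells with a count, 66 left their interval when cells were thinned to 1000 counts and 73 without thinning, both of which keep more counts per cell. Some subtractions gave no value for single genes, and leaving out marked cells was not run in leukocyte classes.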
